A study of Mus musculus with 12 samples.

Results

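The 7 genes encoding the cyclin-dependent kinase (CDK) inhibitors of the CIP/KIP and INK4 families were followed in RNA-seq of myeloid-derived suppressor cells (MDSCs) from mouse liver tumors. They were picked by symbol, because they are classical targets of inhibitors of histone deacetylases (HDACs), and all 7 were found among the 24346 symbols listed for each library. Cdkn1a, Cdkn1b and Cdkn1c form the CIP/KIP family, and Cdkn2a, Cdkn2b, Cdkn2c and Cdkn2d the INK4 family. Hepa 1-6 cells, a mouse hepatoma line, had been transplanted into the liver of wild-type female C57BL/6J mice aged 6 to 8 weeks. From the tumors, CD11b+Ly-6ChiLy-6G- cells were sorted as monocytic MDSCs (M-MDSCs), and CD11b+Ly-6CintLy-6G+ cells as polymorphonuclear MDSCs (PMN-MDSCs). The mice had been given vehicle, MS-275 or CXD101, both inhibitors of HDAC1, HDAC2 and HDAC3. According to the methods the inhibitors were injected into the peritoneum at 5 mg/kg daily for 10 days from day 10, and cells were taken on day 21. This schedule is described for the M-MDSC experiment and was taken to hold for PMN-MDSCs. Each of the 6 groups (2 cell types by 3 treatments) had 2 libraries, 12 in all. The M-MDSC libraries are described as biological replicates; where nothing says so, p-values measure the spread between these libraries only, which may be technical. In bulk RNA, fewer cells of a type and less RNA per cell cannot be told apart.

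CDKs drive the cell cycle once bound to a cyclin. CIP/KIP proteins bind CDK-cyclin complexes of the G1, S and later phases, whereas INK4 proteins bind CDK4 and CDK6 alone and keep D-type cyclins from pairing with them. Either way the retinoblastoma protein and its relatives stay active and hold back E2F-driven genes. Cdkn1a (p21) is the classical target of p53 and of HDAC inhibitors, and HDACs act on it through GC boxes that Sp1 binds. Cdkn1b (p27) and Cdkn2d (p19Ink4d) are known for holding maturing blood cells out of the cycle. Cdkn1c (p57) is imprinted, and Cdkn2a and Cdkn2b lie in a locus kept silent by Polycomb proteins in many cells.

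Expression was given as FPKM, mapped fragments per length of transcript and per library total and so allows levels of different genes to be compared. Depth, estimated from the steps between low values, was between 6930000 and 10520000 reads per library. S100a8 and S100a9 together took 1.78% to 4.28% of the summed FPKM in M-MDSCs, 10.2% and 13.7% in PMN-MDSC vehicle libraries and 27.3% to 30.9% in PMN-MDSCs under either inhibitor. Because a rise of such genes lowers the FPKM of all others, the tests were repeated without them. Of the 9 sorting markers found, Ccr2 lay between 124 and 147 FPKM in M-MDSCs and between 27.5 and 40.7 in PMN-MDSCs, while Csf3r lay between 8.75 and 24.9 in M-MDSCs and between 214 and 339 in PMN-MDSCs. Not all sorting markers separated the cell types. Csf1r was 123 and 123 FPKM in vehicle M-MDSCs and 160 and 145 in vehicle PMN-MDSCs. Ly6c2 was 1360 and 1306 in vehicle M-MDSCs and 511 and 455 in vehicle PMN-MDSCs, but 1418 to 1677 in treated PMN-MDSCs. Ly6g was not analysed here. Of 10 lymphocyte and NK markers, at most 2 reached 1 FPKM in any group, and Ncr1 was listed at 0 in all 12 libraries. The hepatocyte genes Ttr, Serpina1a and Fgb were also listed at 0 throughout. Others of that list were not: Afp lay between 1.04 and 2.29 FPKM, and Apoa2 reached 1.90.

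Cdkn1a dominated the family. It was the most abundant of the 7 genes in every group, with 71.3% of their summed FPKM in M-MDSC vehicle libraries and 74.1% in PMN-MDSC vehicle libraries. Cdkn2d came next in every group, at 18.2% and 16.4%. The third place was held by Cdkn2c in vehicle M-MDSCs and by Cdkn1b in the other 5 groups, although the libraries of Cdkn1b and Cdkn2c overlapped in M-MDSCs under CXD101. Cdkn1c, Cdkn2a and Cdkn2b were the 3 lowest genes in all groups, and their mutual order was separated by the libraries only in M-MDSCs under MS-275 and in PMN-MDSCs under CXD101.

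**Figure D1:**
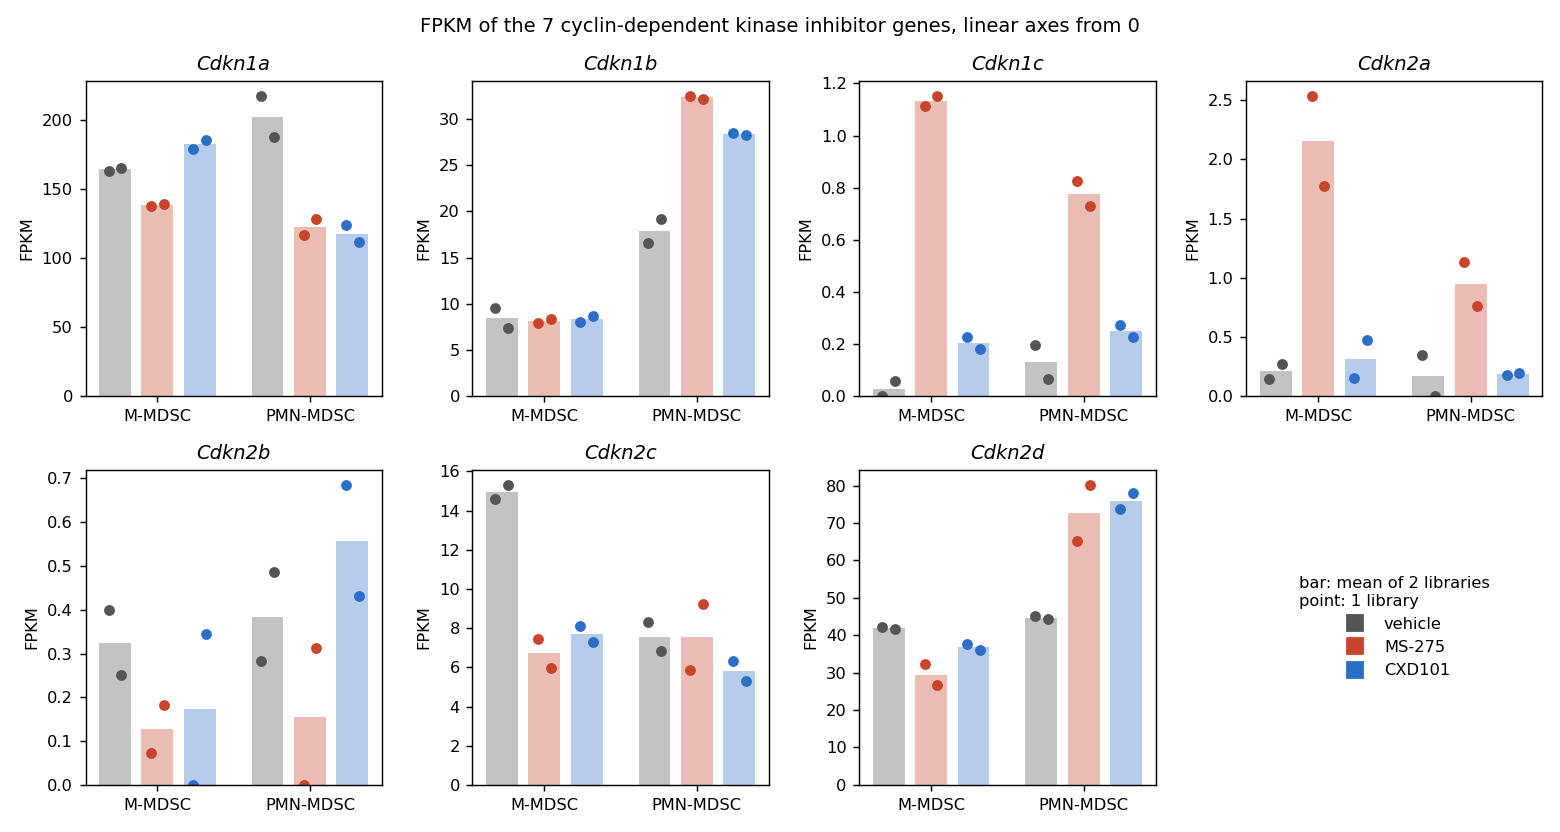
FPKM (linear axes from 0, a separate scale for each gene) of the 7 genes in the 6 groups. Bars are means of 2 libraries and points are the libraries. Cdkn1a points of treated PMN-MDSCs lie between 112 and 128 FPKM, under both vehicle points, while Cdkn1b and Cdkn2d points lie above theirs, and Cdkn1c and Cdkn2a stand out under MS-275.

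The 250 bases before annotated starts are shown for the genes that were called in any comparison and have a RefSeq window, since GC boxes in this stretch are the elements through which HDAC inhibitors are known to act on Cdkn1a. Windows of 300 bases (250 before and 50 after the start, GRCm38.p6) matched 6 of the 7 symbols, all but Cdkn1c. Capitals mark the GC box GGGCGG, searched on both strands, and decamers of the p53 response element. Cdkn1a has a start with no GC box, preceded by chr17:29090729-29090978 (plus strand), and one further downstream, preceded by chr17:29093519-29093768 (plus strand). Cdkn1b is preceded by chr6:134920151-134920400 (plus strand). Cdkn2a has 2 starts whose first exons encode different proteins, Arf at the upstream start, preceded by chr4:89294620-89294869 (minus strand), and p16Ink4a at the downstream start, preceded by chr4:89282193-89282442 (minus strand). Cdkn2c is shown at chr4:109666757-109667006 (minus strand) and Cdkn2d at chr9:21291210-21291459 (minus strand).
Cdkn1a upstream start: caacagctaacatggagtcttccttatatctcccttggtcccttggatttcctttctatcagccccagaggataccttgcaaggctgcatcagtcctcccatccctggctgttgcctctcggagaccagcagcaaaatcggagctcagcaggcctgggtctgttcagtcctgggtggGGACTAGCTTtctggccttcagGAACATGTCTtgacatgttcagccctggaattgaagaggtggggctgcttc
Cdkn1a downstream start: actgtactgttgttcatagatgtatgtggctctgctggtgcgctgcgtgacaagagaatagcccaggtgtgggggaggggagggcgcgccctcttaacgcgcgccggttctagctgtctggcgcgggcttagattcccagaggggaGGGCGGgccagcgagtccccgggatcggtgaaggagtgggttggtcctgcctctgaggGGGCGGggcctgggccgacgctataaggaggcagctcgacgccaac
Cdkn1b: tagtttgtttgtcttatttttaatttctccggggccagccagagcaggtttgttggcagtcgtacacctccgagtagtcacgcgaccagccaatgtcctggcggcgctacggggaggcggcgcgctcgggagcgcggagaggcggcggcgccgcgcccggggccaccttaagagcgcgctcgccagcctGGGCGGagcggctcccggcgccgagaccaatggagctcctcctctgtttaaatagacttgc
Cdkn2a upstream start: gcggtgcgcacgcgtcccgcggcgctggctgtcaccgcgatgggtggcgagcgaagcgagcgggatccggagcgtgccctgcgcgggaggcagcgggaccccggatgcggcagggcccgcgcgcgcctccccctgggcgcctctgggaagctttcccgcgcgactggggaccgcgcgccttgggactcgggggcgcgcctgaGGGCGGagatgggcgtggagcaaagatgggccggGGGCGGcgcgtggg
Cdkn2a downstream start: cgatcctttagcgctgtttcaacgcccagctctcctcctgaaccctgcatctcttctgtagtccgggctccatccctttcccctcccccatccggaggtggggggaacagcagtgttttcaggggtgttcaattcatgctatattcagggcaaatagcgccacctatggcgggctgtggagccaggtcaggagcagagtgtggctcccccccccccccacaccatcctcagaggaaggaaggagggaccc
Cdkn2c: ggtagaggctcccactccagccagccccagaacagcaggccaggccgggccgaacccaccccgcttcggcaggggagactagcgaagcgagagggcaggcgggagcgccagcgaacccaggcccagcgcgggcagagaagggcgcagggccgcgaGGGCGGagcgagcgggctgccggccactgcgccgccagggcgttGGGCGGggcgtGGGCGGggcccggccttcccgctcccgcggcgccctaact
Cdkn2d: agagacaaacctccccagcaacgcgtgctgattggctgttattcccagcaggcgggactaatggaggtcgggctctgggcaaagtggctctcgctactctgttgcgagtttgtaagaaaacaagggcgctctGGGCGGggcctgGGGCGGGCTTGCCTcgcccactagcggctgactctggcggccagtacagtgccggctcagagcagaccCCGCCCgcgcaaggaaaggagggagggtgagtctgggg
The whole 300-base windows held 5 GC boxes for Cdkn2d, 4 for this start of Cdkn2c, 3 for the upstream and 1 for the downstream start of Cdkn2a, 2 for the downstream start of Cdkn1a and 1 each for Cdkn1b and Cdkn2b. Over all 32851 windows, 35.7% held at least 1. A p53 decamer was found 2 times at the upstream start of Cdkn1a and 1 time in Cdkn2d, where it overlapped a GC box. In all, 8.36% of windows held one. CCAAT occurred in 37.4% of windows and 3 times in that of Cdkn1b. TATAAA occurred in 13.6% and in none of the members' windows, and CACGTG in 7.15% and in the other Cdkn2c window alone among the members. GC content ran from 44% in that window to 77% at the upstream start of Cdkn2a, against a median of 52.7% over all windows. These matches describe letters only and say nothing about binding.

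Testing was limited to genes that reached 1 FPKM in 2 or more libraries of a model. A call required a limma adjusted p below 0.05 together with a change of over 1.5-fold on log2(FPKM + 1). Under MS-275 in M-MDSCs, 2 of 6 tested members were called higher (Cdkn1c and Cdkn2a) and 1 lower (Cdkn2c), where 10.1% of all 11078 genes were called higher and 7.32% lower. Cdkn1c and Cdkn2a passed the filter only through the MS-275 libraries and so had to differ; their calls are values, not a count to set against that background. CXD101 in M-MDSCs left 1 of 6 called lower (Cdkn2c), against 5.14% of genes higher and 3% lower. In PMN-MDSCs only 4 members could be tested, and under MS-275 2 were called higher (Cdkn1b and Cdkn2d) and 1 lower (Cdkn1a), against 14.6% of all 11184 genes higher and 14.2% lower. The same 3 genes were called in the same directions under CXD101, against 11.9% higher and 9.54% lower. The comparisons of both inhibitors with vehicle share the vehicle libraries. With 2 libraries a group, an exact permutation test of any single gene could not go below p = 0.333 (two-sided), so the tests rest on the spread pooled across genes.

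**Figure D2:**
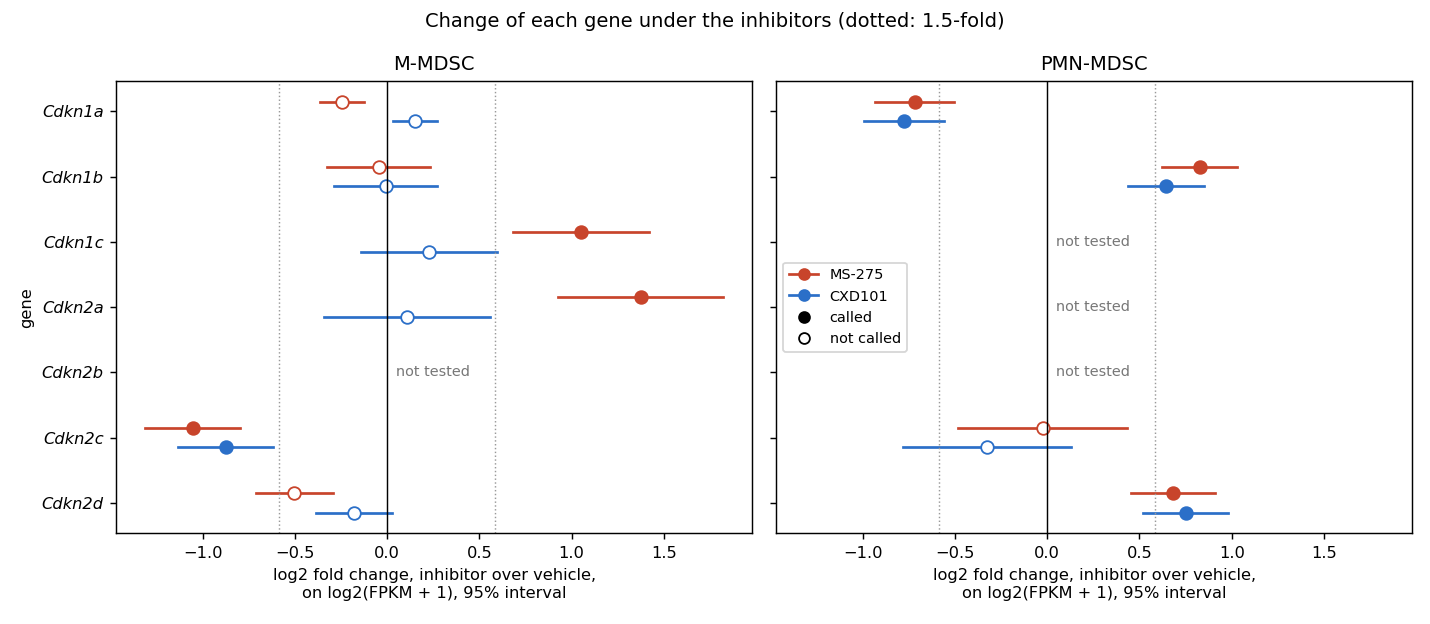
Difference of the inhibitor groups from vehicle for each gene, in log2 units of FPKM + 1 (x axis), with the 95% interval of limma. Filled points were called and open points were not, and dotted lines mark 1.5-fold. In M-MDSCs Cdkn2c lies left of the dotted line under both inhibitors, and in PMN-MDSCs Cdkn1a lies left while Cdkn1b and Cdkn2d lie right.

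Cdkn1a, which encodes p21 (chr17:29090976-29100727, plus strand), was not called higher in any comparison with vehicle. In M-MDSCs its FPKM was 163 and 165 under vehicle, 138 and 139 under MS-275 and 179 and 186 under CXD101. The MS-275 libraries lay below and the CXD101 libraries above both vehicle libraries. The MS-275 difference of -0.24 ± 0.05 (log2, SE) passed the adjusted p (0.0058) but not the fold limit, and that of CXD101, 0.15 ± 0.05, passed neither (adjusted p = 0.0714). In PMN-MDSCs the levels were 217 and 187 under vehicle, 116 and 128 under MS-275 and 124 and 112 under CXD101. All 4 treated libraries were below both vehicle libraries. Cdkn1a fell by 0.72 ± 0.09 with MS-275 (adjusted p = 4.92e-04) and by 0.77 ± 0.09 with CXD101 (adjusted p = 5.08e-04) on the log2 scale.

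Cdkn1b, which encodes p27 (chr6:134920401-134925513, plus strand), behaved differently in the cell types. Its FPKM in M-MDSCs was 9.59 and 7.39 under vehicle, 7.87 and 8.40 under MS-275 and 8.07 and 8.69 under CXD101. These groups overlapped, and the differences were -0.05 (95% interval -0.33 to 0.23) and -0.01 (-0.29 to 0.27). PMN-MDSC libraries had 16.5 and 19.1 FPKM under vehicle, 32.5 and 32.2 under MS-275 and 28.4 and 28.3 under CXD101. Both treated groups lay above both vehicle libraries. Cdkn1b rose by 0.83 ± 0.09 with MS-275 (adjusted p = 1.90e-04) and by 0.64 ± 0.09 with CXD101 (adjusted p = 9.15e-04). Without PMN-MDSC vehicle replicate 1 the CXD101 difference was 0.54, under the fold limit.

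Cdkn1c, which encodes p57 (chr7:143458339-143461050, minus strand), was close to 0 without MS-275. In M-MDSCs its FPKM was 0 and 0.0583 under vehicle, 1.11 and 1.15 under MS-275 and 0.228 and 0.181 under CXD101. Only the MS-275 libraries reached 1 FPKM. The steps between low values gave 0 and 1 reads under vehicle, 22 and 18 under MS-275 and 4 and 3 under CXD101. The difference for MS-275 was 1.05 ± 0.16, given as a value because only those libraries carried the gene past the filter. The depth-adjusted ratio of reads was 39.6 (exact 95% interval 6.71 to 1603). In PMN-MDSCs FPKM was 0.198 and 0.0679 under vehicle, 0.827 and 0.728 under MS-275 and 0.274 and 0.226 under CXD101. The MS-275 libraries were again the highest, but below the filter. Their read ratio to vehicle was 5.86 (1.98 to 23.5), whereas the CXD101 intervals spanned 1 in both cell types.

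Cdkn2a (chr4:89274471-89294653, minus strand) encodes both p16Ink4a and Arf, and the 2 products cannot be told apart under this symbol. M-MDSC levels were 0.147 and 0.273 FPKM under vehicle, 2.53 and 1.77 under MS-275 and 0.150 and 0.476 under CXD101. The MS-275 libraries stood apart and the other groups overlapped. Cdkn2a rose by 1.37 ± 0.20 with MS-275, given as a value for the same reason as for Cdkn1c. The read ratio was 9.90 (3.08 to 50.7). PMN-MDSC levels were 0.347 and 0 under vehicle, 1.13 and 0.765 under MS-275 and 0.180 and 0.198 under CXD101. The read ratio for MS-275 was 5.58 (1.19 to 52.4), on 10 reads against 2. When either M-MDSC MS-275 library was left out, Cdkn1c and Cdkn2a no longer passed the filter and were not tested. In a model of all 12 libraries, which both genes entered only through MS-275 libraries of at least 1 FPKM, the PMN-MDSC differences under MS-275 were 0.65 for Cdkn1c and 0.74 for Cdkn2a, given as values.

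Cdkn2b, which encodes p15Ink4b (chr4:89306299-89311039, minus strand), was the only member tested in no comparison. Its 12 libraries lay between 0 and 0.686 FPKM, at most 7 reads. M-MDSC reads were 5 and 3 under vehicle, 1 and 2 under MS-275 and 0 and 4 under CXD101. PMN-MDSC reads were 3 and 5, 0 and 3, and 7 and 4 in the same order. All 4 read ratios to vehicle had intervals that spanned 1, from 0.371 (0.0635 to 1.55) to 1.47 (0.540 to 4.22), so a difference was not detectable at this depth. These intervals cover counting error only.

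**Figure D3:**
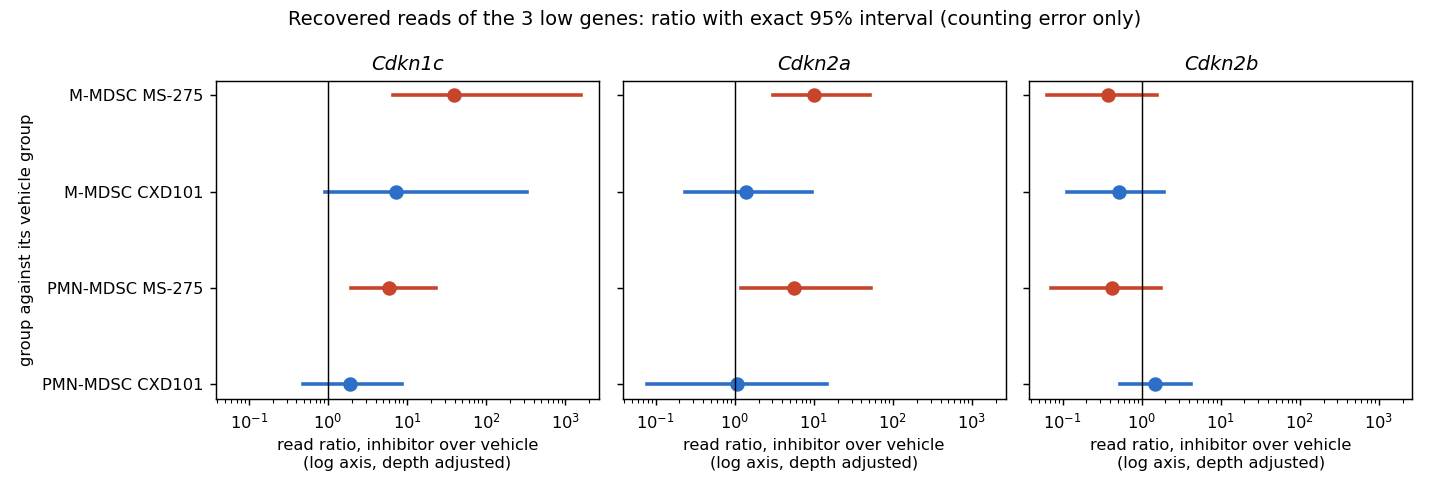
Ratio of recovered reads, inhibitor over vehicle (log axis), for the 3 low genes, summed over 2 libraries and adjusted for depth, with exact 95% intervals for counting error. Intervals lie right of 1 for Cdkn1c and Cdkn2a under MS-275 in both cell types and span 1 elsewhere.

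Cdkn2c, which encodes p18Ink4c (chr4:109660876-109667189, minus strand), was lower in M-MDSCs under both inhibitors. FPKM was 14.6 and 15.3 under vehicle, 7.44 and 5.98 under MS-275 and 8.10 and 7.30 under CXD101. All 4 treated libraries were below both vehicle libraries. Cdkn2c fell by 1.05 ± 0.11 with MS-275 (adjusted p = 1.75e-04) and by 0.88 ± 0.11 with CXD101 (adjusted p = 0.00127). In PMN-MDSCs it had 8.29 and 6.83 FPKM under vehicle, 5.87 and 9.24 under MS-275 and 6.33 and 5.31 under CXD101. The MS-275 libraries lay on either side of the vehicle libraries. Differences there were -0.02 (95% interval -0.48 to 0.43) and -0.33 (-0.78 to 0.13).

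Cdkn2d, which encodes p19Ink4d (chr9:21288410-21291407, minus strand), was higher than vehicle in PMN-MDSCs and not in M-MDSCs. M-MDSC levels were 42.3 and 41.6 FPKM under vehicle, 32.2 and 26.6 under MS-275 and 37.8 and 36.0 under CXD101. All 4 treated libraries were below vehicle, and the MS-275 difference of -0.50 ± 0.09 passed the adjusted p (0.00253) but not the fold limit. It was -0.64, past both, when M-MDSC MS-275 replicate 1 was left out. PMN-MDSC levels were 45.1 and 44.4 under vehicle, 65.3 and 80.2 under MS-275 and 73.7 and 78.1 under CXD101. All 4 treated libraries were above both vehicle libraries. Cdkn2d rose by 0.68 ± 0.10 with MS-275 (adjusted p = 8.46e-04) and by 0.75 ± 0.10 with CXD101 (adjusted p = 7.69e-04). Without PMN-MDSC MS-275 replicate 2 the first of these was 0.54, under the fold limit.

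Summed by family, CIP/KIP transcripts exceeded INK4 transcripts in every library. The ratio of the sums was 3.003 and 3.009 in vehicle M-MDSCs, 3.47 and 4.30 under MS-275 and 4.07 and 4.40 under CXD101. It was 4.33 and 3.997 in vehicle PMN-MDSCs, 2.07 and 1.78 under MS-275 and 1.88 and 1.67 under CXD101. The treated libraries thus lay above vehicle in M-MDSCs and below vehicle in PMN-MDSCs. Cdkn1a and Cdkn2d carried most of both sums, and these ratios were not tested.

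Under vehicle the cell types differed in 2 of the 6 tested members, where 34% of all 11662 genes were called. Cdkn1b was higher in PMN-MDSCs by 0.996 ± 0.11 (adjusted p = 1.82e-05) and Cdkn2c lower by 0.90 ± 0.18 (adjusted p = 0.0011). Cdkn1a was 0.30 ± 0.08 higher, past the adjusted p (0.00724) but not the fold limit. For Cdkn2d the difference was 0.09 (95% interval -0.14 to 0.32).

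The response itself was compared between the cell types as an interaction. For MS-275, 3 of 6 tested members were called, where 18.1% of all genes were. The PMN-MDSC response minus the M-MDSC response was 0.87 ± 0.16 for Cdkn1b, 1.03 ± 0.25 for Cdkn2c and 1.18 ± 0.15 for Cdkn2d (adjusted p = 0.00217, 0.0107 and 2.62e-04). Of all genes called there, 47.7% had the higher response in PMN-MDSCs, and 32.9% after rescaling without S100a8 and S100a9, which shifted the median of all genes by -0.11. Under that rescaling Cdkn1a was called as well, at -0.60. For CXD101, 3 of 6 were called, where 13.9% of all genes were. The differences were -0.93 ± 0.11 for Cdkn1a, 0.65 ± 0.16 for Cdkn1b and 0.93 ± 0.15 for Cdkn2d (adjusted p = 3.69e-04, 0.0129 and 0.00143). That of Cdkn1b was under the fold limit without M-MDSC vehicle replicate 1 (0.48) or PMN-MDSC vehicle replicate 1 (0.55). The 95% intervals for Cdkn1c and Cdkn2a included 0 for both inhibitors, as did that of Cdkn2c for CXD101. Cdkn1c and Cdkn2a entered this model only through MS-275 libraries and lay near the detection limit. Their intervals therefore cannot show that the responses were equal.

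The 2 inhibitors were compared with each other at the same dose, as 1 pair in each cell type. In M-MDSCs 4.4% of all genes were called. The MS-275 level minus the CXD101 level was 0.82 ± 0.16 for Cdkn1c and 1.26 ± 0.20 for Cdkn2a (log2, SE). Both passed the filter only through the MS-275 libraries and so had to differ, and these differences are given as values, not as a count against that share. Without either MS-275 library neither gene passed the filter, and limma called 0 of 4 members, with 3 and 1 at an unadjusted p under 0.05. Without CXD101 replicate 1 or replicate 2 the Cdkn1c difference was 0.85 or 0.80. Cdkn1a was 0.39 ± 0.05 lower under MS-275 (adjusted p = 0.00367), short of the fold limit, and Cdkn2d 0.32 ± 0.09 lower (adjusted p = 0.0506). For Cdkn2c the difference was -0.18 (95% interval -0.44 to 0.08). In PMN-MDSCs limma called 0 of 4, also 0 at an unadjusted p under 0.05, where 0.805% of genes were called. The intervals were -0.16 to 0.27 for Cdkn1a, -0.02 to 0.39 for Cdkn1b, -0.15 to 0.76 for Cdkn2c and -0.30 to 0.16 for Cdkn2d.

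Marker genes of early and late granulocyte stages also differed between treated and vehicle libraries. The 9 late neutrophil markers (among them Ltf, Camp, Ngp and Cxcr2) summed to 4997 and 5714 FPKM in vehicle PMN-MDSCs, 25210 and 25068 under MS-275 and 29890 and 30688 under CXD101. Of these, 6 rose under either inhibitor in PMN-MDSCs, and 1 fell under MS-275. In M-MDSCs 5 of 6 immature granulocyte markers (Elane, Mpo and others) rose under either inhibitor, from 1712 and 1685 FPKM in sum to 4651 and 4973 under MS-275 and 4086 and 3948 under CXD101. Of these, Cd34 (1.56 and 0.790 FPKM under vehicle) passed the filter only with treated libraries, so its rise is a value. In PMN-MDSCs 3 of the 6 rose under MS-275 and 2 under CXD101, and 0 fell. Their sum there was 331 and 194 FPKM under vehicle, 364 and 427 under MS-275 and 438 and 372 under CXD101. Of 8 macrophage markers, 5 fell and 1 rose in M-MDSCs under MS-275, 4 fell and 1 rose under CXD101, 5 fell and 2 rose in PMN-MDSCs under MS-275, and 5 fell and 1 rose there under CXD101. Vcam1 rose in all 4 comparisons, and Apoe in PMN-MDSCs under MS-275, from 13.8 and 16.4 FPKM to 45.2 and 51.1. Among the macrophage markers, Vcam1 passed the filter only through treated libraries and C1qa only through vehicle libraries, so both had to differ. Over all genes, 17.5%, 8.13%, 28.7% and 21.4% were called in these comparisons, in the same order. In M-MDSCs 4 of 6 tested eosinophil markers rose under MS-275 and 5 under CXD101, from 160 and 197 FPKM in sum to 389 and 418 and to 377 and 408. Ear2 alone made up 137 and 174 FPKM of the vehicle sums. Ear1 (0.559 and 1.17 FPKM under vehicle) passed the filter only with treated libraries, so its rise is a value. In PMN-MDSCs 1 of 7 tested was higher and 1 lower under each inhibitor, 28.6% against 28.7% and 21.4% of all genes. In M-MDSCs the late neutrophil markers were split, with 3 higher and 3 lower under MS-275 and 3 higher and 1 lower under CXD101. The hepatocyte list summed to between 41.7 and 272 FPKM, nearly all of it from Trf, a gene also known outside hepatocytes. The 6 dendritic markers summed to 86.4 and 53.8 FPKM in vehicle PMN-MDSCs, 32.1 and 31.7 under MS-275 and 35.5 and 37.8 under CXD101. Most of this was H2-Ab1 (80.5 and 50.0 FPKM under vehicle), while Flt3, Zbtb46, Xcr1 and Siglech stayed below 1 FPKM. Of the 2 tested in PMN-MDSCs, H2-Ab1 fell under either inhibitor. Cd209a passed the filter only through the vehicle libraries (4.30 and 2.07 FPKM) and so had to fall. In M-MDSCs the sum lay between 13.1 and 24.8 FPKM, and the 1 tested gene, H2-Ab1, fell under CXD101. Erythroid markers summed to at most 0.873. The part of these changes in the levels of the CDK inhibitor genes was not tested.

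The partners and targets of the inhibitors were read in the same fits. Of 32 genes of DNA replication and mitosis, 14 (43.8%) fell in M-MDSCs under MS-275, where 7.32% of all genes did, and 1 (3.12%) under CXD101, where 3% did. In PMN-MDSCs 6 (18.8%) fell under MS-275 and 2 (6.25%) under CXD101, against 14.2% and 9.54% of all genes, and these last 3 shares lay near or below that of all genes. The median difference of the list in M-MDSCs under MS-275 was -0.41, against -0.06 over all genes tested. Ube2c, a ubiquitin-conjugating enzyme of mitotic exit, fell by 1.25 in M-MDSCs under MS-275 and by 0.63 under CXD101, from 183 and 157 FPKM to 69.1 and 72.0 and to 113 and 105. Gins2, a subunit of the replicative helicase complex, fell by 1.27 and 0.89 in PMN-MDSCs. Under vehicle all 32 were called lower in PMN-MDSCs than in M-MDSCs, where 34% of all genes were called in either direction.

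**Figure D4:**
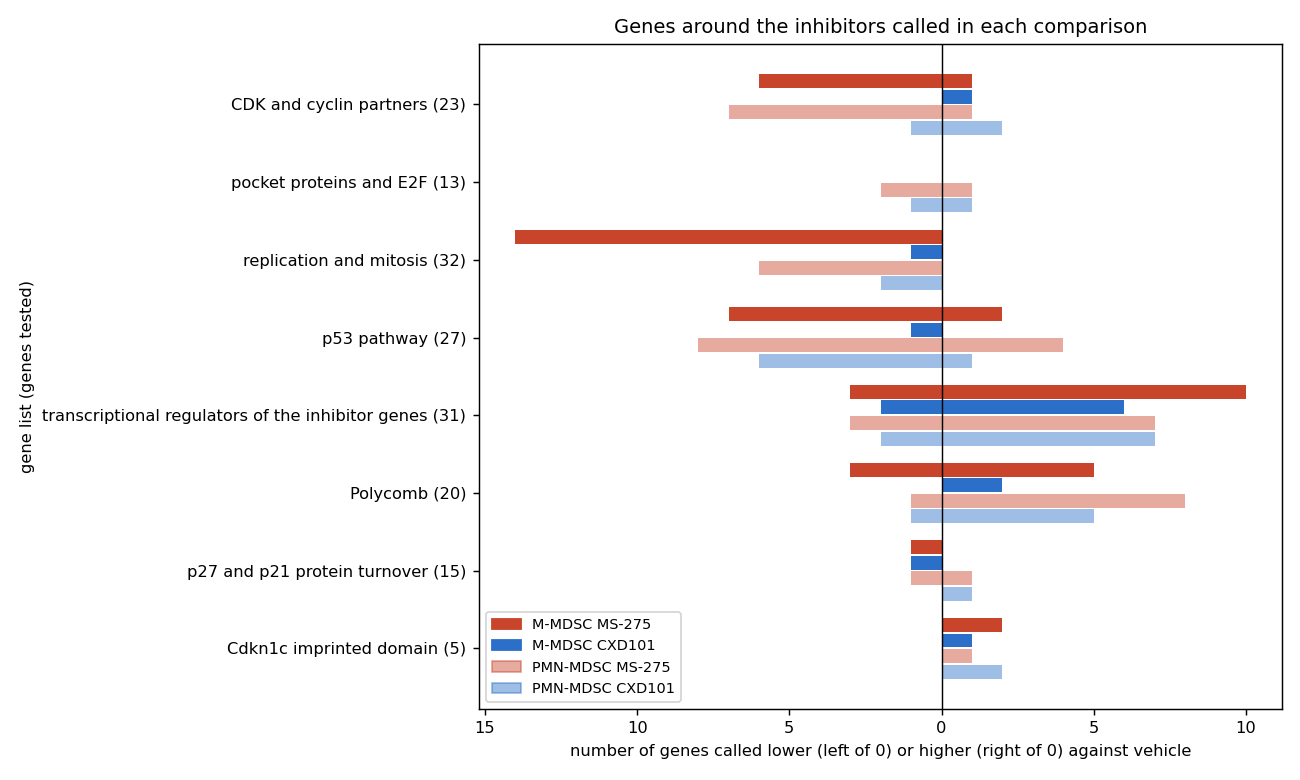
Number of genes called lower (left of 0) and higher (right of 0) against vehicle in 8 lists of genes around the CDK inhibitors, with the number tested in parentheses. The longest bars are the 14 replication and mitosis genes lower in M-MDSCs under MS-275 and the 10 transcriptional regulators higher there.

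Among 23 tested CDKs, cyclins and their regulators, 6 fell and 1 rose in M-MDSCs under MS-275, 1 rose under CXD101, and in PMN-MDSCs 7 fell and 1 rose under MS-275 and 1 fell and 2 rose under CXD101. Over all genes tested, 17.5% and 8.13% were called in M-MDSCs and 28.7% and 21.4% in PMN-MDSCs, against 30.4%, 4.35%, 34.8% and 13% of this list. Ccnd1, a D-type cyclin, had 15.7 and 18.6 FPKM in vehicle M-MDSCs, 33.6 and 32.8 under MS-275 and 25.6 and 29.4 under CXD101, and rose by 0.92 and 0.65. In PMN-MDSCs it fell by 0.97 and 0.59, from 13.4 and 11.6 FPKM to 5.28 and 6.56 and to 7.76 and 8.14. Cdk2, the partner of cyclins E and A, rose by 0.82 and 0.79 in PMN-MDSCs, from 31.7 and 29.5 FPKM to 52.7 and 56.5 and to 56.6 and 51.0. The M-phase genes Cdc25b, Cdkn3 and Ccnb1 fell by 1.03, 0.95 and 0.95 in M-MDSCs under MS-275. Of 13 pocket protein and E2F genes, limma called 0 in M-MDSCs under either inhibitor, with 8 and 2 at an unadjusted p under 0.05. In PMN-MDSCs E2f2 rose by 0.75 and 0.71, E2f5 fell by 0.70 and 0.97, and E2f6 fell by 0.70 under MS-275.

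Of 27 tested genes of the p53 pathway, 8 fell and 4 rose in PMN-MDSCs under MS-275, 6 fell and 1 rose under CXD101, 7 fell and 2 rose in M-MDSCs under MS-275 and 1 fell under CXD101. The called shares of this list were 33.3% and 3.7% in M-MDSCs and 44.4% and 25.9% in PMN-MDSCs, where 17.5%, 8.13%, 28.7% and 21.4% of all genes were called. Plk2, a polo-like kinase, fell in all 4 comparisons, by 1.31 and 0.76 in M-MDSCs and by 1.47 and 1.35 in PMN-MDSCs. Phlda3, a p53-induced inhibitor of AKT, fell by 1.49 in M-MDSCs and by 1.39 in PMN-MDSCs under MS-275. Under CXD101 its mean was 16.5 FPKM in M-MDSCs, against 17.1 under vehicle, and 4.47 in PMN-MDSCs, against 8.24. The list's median difference was 0.04 under MS-275 and -0.09 under CXD101 in PMN-MDSCs, against -0.03 over all genes in both. Ddb2, a DNA repair factor, rose by 1.05 in PMN-MDSCs under CXD101. Its mean there was 8.43 FPKM under vehicle, 20.2 under MS-275 and 18.4 under CXD101. Trp53 itself, named after its values were seen, fell by 1.01 and 0.73 in PMN-MDSCs, from 73.7 and 64.6 FPKM to 32.2 and 35.6 and to 42.3 and 40.1.

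Of 31 tested transcription factors and signals known to act on the inhibitor genes, 10 rose and 3 fell in M-MDSCs under MS-275, 6 and 2 under CXD101, and 7 and 3 and 7 and 2 in PMN-MDSCs. These made up 41.9% and 25.8% of the list in M-MDSCs and 32.3% and 29% in PMN-MDSCs, beside 17.5%, 8.13%, 28.7% and 21.4% of all genes. Cebpe, a factor of late granulocyte maturation, had 45.5 and 43.1 FPKM in vehicle PMN-MDSCs, 182 and 191 under MS-275 and 168 and 190 under CXD101, and rose by 2.05 and 1.99. Ets1, which can activate Cdkn2a, rose by 1.47 in M-MDSCs and 2.19 in PMN-MDSCs under MS-275. Under CXD101 it rose by 1.94 in PMN-MDSCs, and its M-MDSC mean was 4.54 FPKM against 2.23 under vehicle. Klf4, an activator of Cdkn1a, fell by 1.60 in M-MDSCs and 1.98 in PMN-MDSCs under MS-275. Its FPKM went from 53.1 and 54.6 to 17.8 and 16.4 and from 17.97 and 17.65 to 3.54 and 3.97. Under CXD101 its means were 35.2 and 8.04 FPKM. Gfi1, a repressor in granulocyte precursors, rose by 1.22 in M-MDSCs and 1.88 in PMN-MDSCs under CXD101. Its means under MS-275 were 35.4 and 16.3 FPKM, against 13.2 and 3.43 under vehicle. Id3, an inhibitor of E proteins, rose by 1.71 and 1.68 in M-MDSCs under MS-275 and CXD101. In PMN-MDSCs Id3 fell by 0.66 under MS-275, from 15.7 and 16.2 FPKM to 7.66 and 12.2, and was not called under CXD101.

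Of 20 Polycomb genes, 5 rose and 3 fell in M-MDSCs under MS-275, 2 rose under CXD101, and in PMN-MDSCs 8 rose and 1 fell and 5 rose and 1 fell. That was 40% and 10% of the list in M-MDSCs and 45% and 30% in PMN-MDSCs, where 17.5%, 8.13%, 28.7% and 21.4% of all genes were called. Cbx6 rose by 1.98 and 1.54 in M-MDSCs and by 1.99 and 1.60 in PMN-MDSCs. Pcgf2 rose by 1.004 and 0.98 and by 1.64 and 1.64. Cbx7 rose by 1.11 in M-MDSCs under MS-275 and by 1.36 and 1.05 in PMN-MDSCs. Bmi1, a repressor of Cdkn2a named after its values were seen, went the other way. It fell by 0.86 in M-MDSCs under MS-275 and by 1.32 and 0.89 in PMN-MDSCs. Its FPKM was 8.34 and 7.23 in vehicle M-MDSCs, 3.63 and 4.05 under MS-275 and 5.67 and 5.31 under CXD101. A part of any Polycomb gene in the level of Cdkn2a was not tested. Of 15 genes of p27 and p21 protein turnover, Rchy1 fell by 1.25 and 0.86 in M-MDSCs, Fbxo31 rose by 1.10 and 1.13 in PMN-MDSCs and Cops5 fell by 0.61 in PMN-MDSCs under MS-275. In each of the 4 comparisons 1 or 2 of the 15 were called.

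Neighbors in the genome did not move uniformly with the inhibitor genes. Rab44, 13406 bp from Cdkn1a, had 37.6 and 40.3 FPKM in vehicle M-MDSCs, 71.5 and 83.6 under MS-275 and 70.0 and 70.1 under CXD101. In PMN-MDSCs it had 130 and 144, 265 and 293, and 265 and 257. It rose in all 4 comparisons, by 0.97, 0.83, 1.02 and 0.92, while Cdkn1a was called higher in none (its difference in M-MDSCs under CXD101 was 0.15). Kri1, 490 bp from Cdkn2d, was not called in any of them (-0.25 to 0.08). Ap1m2, 3194 bp away on the other side, rose by 1.38 and 1.24 in PMN-MDSCs and by 0.79 in M-MDSCs under CXD101. In PMN-MDSCs it passed the filter only through treated libraries, so the differences there are given as values. Of 11 genes of the imprinted domain around Cdkn1c, 5 were tested. Slc22a18, 12667 bp from Cdkn1c, rose by 0.98 in M-MDSCs under MS-275 (1.39 and 1.91 FPKM under vehicle, 4.50 and 3.93 under MS-275). In PMN-MDSCs it had 1.04 and 0.799 FPKM under vehicle and passed the filter only with treated libraries. Its difference there under CXD101, 0.66, is given as a value. Cd81 rose in all 4, by 0.60 to 0.87. Mtap, 93383 bp from Cdkn2a, fell by 1.11 and 0.98 in PMN-MDSCs. Faf1, 9871 bp from Cdkn2c, was not called.

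Across the 12 libraries, the genes whose log2 pattern was most like each member were listed among 8421 genes with mean FPKM of at least 5. The libraries share cell type and treatment, so Pearson's r is a description. For Cdkn1a these were Vwf (0.953), Gdf15 (0.939) and Bax (0.926), of which Bax was also on the p53 list. Cdkn1b was followed by Gpbp1l1, Fgd3 and 4930581F22Rik (0.993 to 0.994) and Cdkn2d by Tbc1d10b, Tmem63a and Zfand2b (0.971 to 0.978). The closest to Cdkn2c were Tuba1a (0.929), Tmem41b (0.914) and Elmo2 (0.887). Cdkn1c went with Pik3ap1, Lyz2 and Ly6a (0.916 to 0.924) and Cdkn2a with Fbxo42, Hpse and Cox4i2 (0.863 to 0.872), both from values near the detection limit.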

How the data were processed

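RNA-seq (TruSeq stranded mRNA, single-end, Illumina NovaSeq) had been run on 12 libraries of sorted MDSCs, 2 per group. The authors deposited 1 table of FPKM per library, scaled by transcript length and mapped fragments. The submitters' processing notes name mm10, TopHat2 2.1.1, Bowtie2 2.2.8, SAMtools 0.1.18 and Cuffdiff 2.2.1; annotation and strand setting are not given in the sources used here. The RNA kit is miRNeasy Micro in the labels and Mini in the methods. Groups were taken from the sample titles.

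The 7 genes and all gene lists were chosen with earlier results of these data known. limma 3.58.1 (R 4.3.3) was run with an intensity trend on log2(FPKM + 1), on genes reaching 1 FPKM in 2 or more libraries. Each cell type had 1 model of 6 libraries, and comparisons between cell types a model of 12. P-values were Benjamini-Hochberg adjusted over all genes tested, and genes were called under 0.05 and above 1.5-fold, the limits in the paper's methods. Fold changes on this scale understate low genes. The script was tested on simulated data. Reads of low genes were recovered from the steps between values up to 0.3 FPKM and called whole within 0.05; for Cdkn2a 4 of 12 and for Cdkn1c 1 of 12 were not whole and were rounded. Named genes were the 7 members, up to 3 called genes per list and comparison with the largest change, the nearest neighbors and the 3 genes most like each member; other genes of the lists are marked in the text, and single marker genes were chosen after their values were seen. Gene positions are from GENCODE vM21 (GRCm38, the same build as mm10), and promoter windows and neighbor distances from RefSeq GRCm38.p6. Scaling, filter, pseudocount, block, trend, thresholds and each library were varied. Python 3.11.15 with numpy 2.4.6, pandas 2.3.3, scipy 1.17.1 and matplotlib 3.10.9 served for reads, promoters and figures.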

Additional observations from a re-analysis of the deposited data

Results flagged for a closer look

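The response of 4 CDK inhibitor genes differed between PMN-MDSCs and M-MDSCs by a test of the difference itself (interaction in limma, log2 scale, adjusted p under 0.05 and above 1.5-fold). Of all genes, 18.1% were called in this way for MS-275 and 13.9% for CXD101. For MS-275 the PMN-MDSC response was the higher by 0.87 for Cdkn1b, 1.03 for Cdkn2c and 1.18 for Cdkn2d. For CXD101 it was lower by 0.93 for Cdkn1a (-0.93) and higher by 0.65 for Cdkn1b and 0.93 for Cdkn2d. The value of Cdkn1b for CXD101 fell under the fold limit without vehicle replicate 1 of M-MDSCs (0.48) or of PMN-MDSCs (0.55). Cdkn1b rose in PMN-MDSCs under either inhibitor and its M-MDSC groups overlapped. Cdkn2c fell in M-MDSCs under either inhibitor. Its level was 7.56 ± 1.04 FPKM in vehicle PMN-MDSCs and 6.71 ± 1.03 in M-MDSCs under MS-275 (SD, n = 2). For CXD101 the difference in its response was 0.55, not called (adjusted p = 0.137).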

How the results depend on the processing

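Counts of called members were recomputed under each alternative. An FPKM filter of 5 left 1 called for MS-275 in M-MDSCs and 0 between the inhibitors there, because Cdkn1c and Cdkn2a were no longer tested; in the second case limma still had 2 of 4 members at an unadjusted p under 0.05. The adjusted p alone gave 5 for MS-275 in M-MDSCs. A pseudocount of 0.1 gave 1 between the inhibitors in M-MDSCs. For MS-275 in PMN-MDSCs no filter and a model of all 12 libraries each gave 5, since Cdkn1c and Cdkn2a were then tested. A fold limit of 2 gave 0 for CXD101 in M-MDSCs, for each inhibitor in PMN-MDSCs, for the cell types under vehicle and for the difference in response to CXD101, and 1 between the inhibitors in M-MDSCs; where limma then called 0, 2 or 3 members had an unadjusted p under 0.05. Leaving out 1 library gave 1 to 3 called for MS-275 in M-MDSCs, 0 to 2 between the inhibitors there, 2 to 3 for each inhibitor in PMN-MDSCs and 2 to 3 for the difference in response to CXD101. The replicate block changed no call of a member, with 3, 1 and 2 called in M-MDSCs and 3, 3 and 0 in PMN-MDSCs, and the numbers are not stated to pair the libraries. Deviations of same-numbered libraries correlated across genes at -0.12 between vehicle and MS-275 in PMN-MDSCs and at -0.10 between the cell types under vehicle, within a range over all pairs of groups from -0.126 (the cell types under CXD101) to 0.179 (M-MDSC MS-275 and PMN-MDSC vehicle). Crossed numbers, chosen after seeing the data, gave 3 for MS-275 in PMN-MDSCs and 2 for the cell types under vehicle. Of 928 values of single genes, 878 kept direction and call, 21 lost and 7 gained a call, 22 uncalled values changed sign, and no called value reversed. Rescaling without S100a8 and S100a9 moved the mean levels by 0.945 to 1.06 times. Depth limits Cdkn1c, Cdkn2a and Cdkn2b, with at most 22 reads a library.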
